A study of Homo sapiens with 12 samples.

Results

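On the long arm of chromosome 3, in bands 3q25 to q26, lies a block of 29.9 Mb that starts 467 bp beyond HLTF, the gene targeted in the knockout cells. The members were all peaks of either deposited list with their midpoint on chromosome 3 from 149087000 to 178990000 (hg38). They were 565 of 112068 peaks, made of 164 of 65170 knockout and 401 of 46898 wild-type peaks. The block was selected on its measured values, the numbers of peaks in the knockout and wild-type lists, so its counts, its covered bases and the overlap of its peaks between the lists are a description and carry no test.

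The study compared trimethylation of lysine 9 of histone H3 (H3K9me3) in SMARCA3 knockout (SMARCA3_KO, here KO) and wild-type (WT) 293T cells, SMARCA3 being an older name of HLTF. 293T is a human embryonic kidney line that carries the SV40 large T antigen. Chromatin was precipitated with an anti-H3K9me3 antibody in 3 KO and 3 WT libraries from biological triplicates, each with an input library. The labels do not say how the knockout was made or whether the KO cells are 1 clone. Each genotype has 1 peak list, how its 3 libraries were combined is not given in the sources used here, and no difference below has a replicate check. The lists give a fold enrichment and a q-value per peak, both the authors' values, and hold no read depth and no expression, so neither the knockout nor the cell type could be checked from them. Intervals are 95% Wilson intervals of a share of peaks, or the same turned into a ratio. They take peaks as independent and cover counting only.

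H3K9me3 is the mark of constitutive heterochromatin. It is written by the methyltransferases SETDB1 and SUV39H, is bound by the HP1 proteins, and in differentiated and transformed cells covers repeats, gene-poor stretches and silenced genes. HLTF is a DNA translocase of the SWI/SNF-related group with a RING finger, known for its part in the bypass of damaged DNA at replication forks. The stretch beyond it on 3q holds long genes such as NAALADL2 and the neuronal gene NLGN1. In 3q26 it holds MECOM, PRKCI, TNIK and other genes of an amplicon described in carcinomas.

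The sequences below are 300-base promoter windows from RefSeq (GRCh38.p14), reaching from 250 bases before to 50 bases after a gene's start, written 5' to 3' on the gene's strand. MECOM-AS1 is shown because its window was the only one of 257 in the block under a peak of either list. It lies at chr3:169447617-169447916 on the plus strand, inside MECOM. Capitals mark the 261 bases under a peak that was called in WT alone. RSRC1, is shown because the gene was named in the choice of the block. Its window lies at chr3:158109839-158110138 on the plus strand, and no base of it is in capitals because no peak covered it.
MECOM-AS1: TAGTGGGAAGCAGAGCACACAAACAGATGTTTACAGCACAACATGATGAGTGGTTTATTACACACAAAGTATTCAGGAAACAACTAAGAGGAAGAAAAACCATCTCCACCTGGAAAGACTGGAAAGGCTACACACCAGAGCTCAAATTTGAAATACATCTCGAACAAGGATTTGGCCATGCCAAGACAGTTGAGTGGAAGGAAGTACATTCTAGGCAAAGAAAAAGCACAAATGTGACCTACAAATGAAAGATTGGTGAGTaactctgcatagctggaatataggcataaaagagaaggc
RSRC1: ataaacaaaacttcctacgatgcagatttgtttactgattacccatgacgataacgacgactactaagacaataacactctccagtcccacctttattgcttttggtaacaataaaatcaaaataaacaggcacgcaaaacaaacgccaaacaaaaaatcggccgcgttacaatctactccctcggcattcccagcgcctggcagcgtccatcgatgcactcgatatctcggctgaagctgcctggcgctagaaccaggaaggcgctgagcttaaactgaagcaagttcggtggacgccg

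The MECOM-AS1 window holds 1 CpG and 40.7% G and C, and the RSRC1 window holds 20 CpG and 47.0%. The median of the 257 promoter windows of the block was 6 CpG and 48.3%, against 14 CpG and 58.7% over the 34859 windows of the rest of the genome. Under a KO peak lay 0 of 257 windows of the block (Wilson upper limit 1.47%), and under a WT peak lay 1, or 0.389% (0.0687 to 2.17). In the rest of the genome the shares were 0.637% in KO and 0.244% in WT. None of the 10 miRNA hairpins of the block in RefSeq lay under a peak of either list.

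Across the block, KO had 164 peaks over 96935 bases and WT had 401 peaks over 244599 bases. The ratio of KO to WT was 0.409 for peaks (0.341 to 0.490) and 0.396 for bases, against 1.40 (1.38 to 1.42) and 1.60 in the rest of the genome. The lists hold no input coverage, so the number of DNA copies of 3q in KO and WT cells was not measured, and a difference in copies and a difference in H3K9me3 cannot be told apart in these counts. Peaks of the block were similar in width in both lists, the mean being 591 bp for KO peaks and 610 bp for WT peaks, against 811 bp for KO peaks and 710 bp for WT peaks in the rest of the genome. The median fold was 3.49 in KO and 3.77 in WT inside the block, and 3.59 and 3.77 outside it. Of the KO peaks of the block 17 were over 1 kb, and of the WT peaks 50. The KO list gives smaller q-values at a like fold, since among peaks of the block with a fold of 3.4 to 3.7 the median q was 2.0e-07 in KO (41 peaks) and 1.2e-05 in WT (87 peaks).

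Inside the bounds WT had more bases than KO in nearly every window, and on both sides KO had more. In windows of 1 Mb counted from the lower bound, 29 of 30 in the block held fewer KO than WT bases, and the exception was the last one, with 1488 KO and 1066 WT bases. Over all chromosomes 10.8% of windows with a peak had fewer KO bases. KO had 0 to 15 peaks per window with a median of 3.5, and WT had 1 to 28 with a median of 13. In the 10 Mb below the block, which include HLTF, 10 of 10 windows held more KO bases, with 176 KO and 132 WT peaks. In the 10 Mb above it 10 of 10 did too, with 51 KO and 18 WT peaks. The windows with the largest differences were the one from 158087000, with 4120 KO and 15689 WT bases, the one from 171087000, with 6774 and 16957, and the one from 161087000, with 3852 and 14026. The smallest differences were in the last window and in those from 167087000 (1880 KO and 2921 WT bases) and 166087000 (1022 and 2085).

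**Figure D1:**
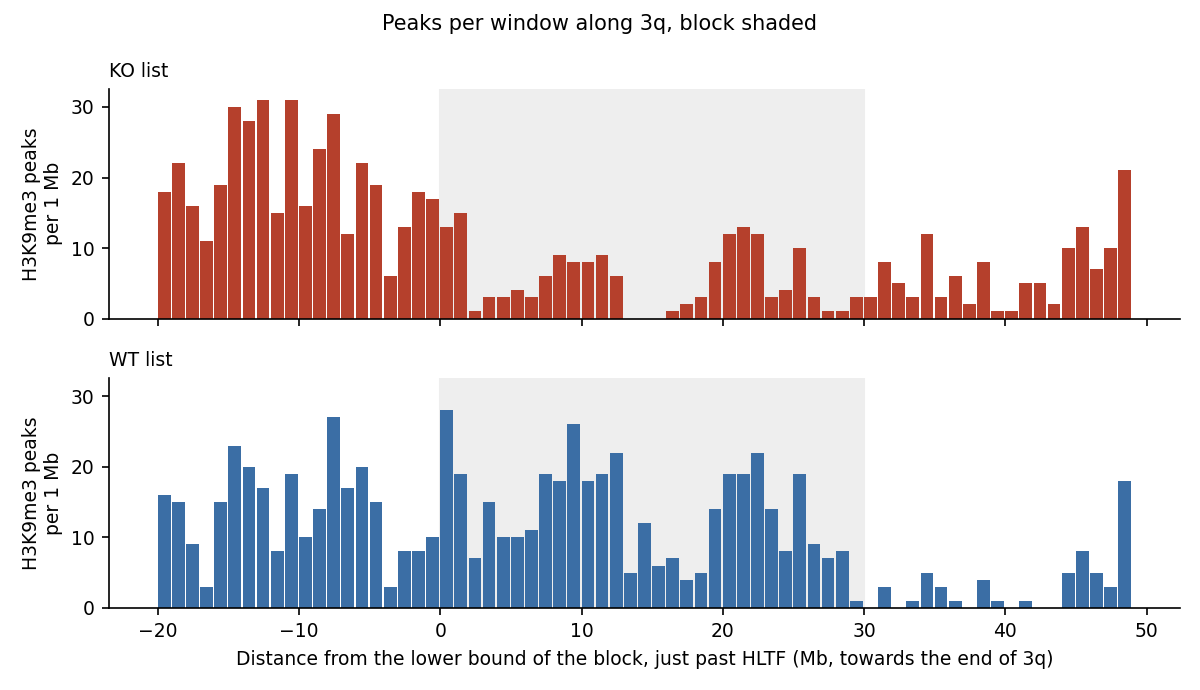
H3K9me3 peaks per window of 1 Mb along the long arm of chromosome 3, in the KO list (top) and the WT list (bottom), against the distance from the lower bound of the block in Mb. The block is shaded. KO windows inside it hold 0 to 15 peaks and WT windows 1 to 28, while on both sides KO bars are mostly the taller ones.

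Just below the lower bound, both lists had a peak in GYG1, the gene of glycogenin. It had a fold of 5.03 in KO and 6.45 in WT, and lay 4.44 kb from HLTF in KO and 4.20 kb in WT. HLTF itself (149030063 to 149086533) had no peak in either list. Just inside, the first KO peak lay 365 kb beyond HLTF with a fold of 2.79, and the first WT peak lay 303 kb beyond it with a fold of 3.93 and met no KO peak. At the upper bound the last KO peak inside had a fold of 4.36, and the first outside, 297 bp beyond the bound, 3.27. The last WT peak inside had a fold of 4.24, and the next one beyond was 1018084 bp away, in PEX5L, with a fold of 3.76.

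Of the 401 WT peaks of the block, 133 met a KO peak by at least 1 bp and 268 did not. Those shared made up 33.2%, against 80.4% outside the block, and those not shared 66.8%, against 20.1% over all chromosomes and 19.6% outside the block. Of the 164 KO peaks, 138 met a WT peak and 26, or 15.9%, did not, against 49.4% over all chromosomes and 49.5% outside the block. Of KO peaks outside the block 50.5% met a WT peak. Joined where they overlapped, the peaks formed 413 sites, of which 26 came from KO alone, 268 from WT alone and 119 from both. In the rest of the genome the order was different, with 45.4% of sites from KO alone, 12.9% from WT alone and 41.7% from both. WT-only peaks of the block lay at a median distance of 53.0 kb from the nearest KO peak, against 2.09 kb in the rest of the genome. Of the 268, 199 lay more than 10 kb away (74.3%, against 35.0% of unshared WT peaks in the rest of the genome). The block was selected on its numbers of peaks, so this distance is a description as well. Of the 26 KO-only peaks, 13 lay within 1 kb of a WT peak (50%, against 26.3% in the rest of the genome).

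Wide WT peaks were shared more often than narrow ones. Of WT peaks up to 332 bp, 17.5% (11.4 to 25.9) met a KO peak, and of those over 332 and up to 462 bp 18.4%. The share was 32.7% over 462 and up to 726 bp and 64.6% (54.8 to 73.4) above 726 bp. At the same widths in the rest of the genome the shares were 63.2%, 72.7%, 84.8% and 96.6%. A wide peak is easier to meet by 1 bp, so the midpoints were compared as well. The midpoint lay inside a KO peak for 65 of the 200 peaks wider than the median of 462 bp (32.5%) and for 23 of the 201 narrower ones (11.4%), against 84.3% and 60.5% in the rest of the genome.

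**Figure D2:**
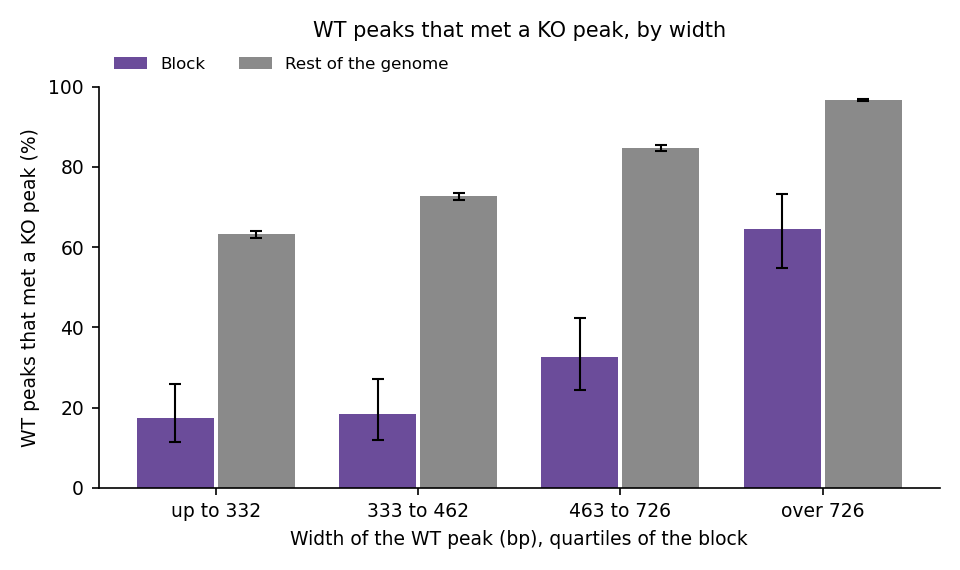
Share of WT peaks that met a KO peak by at least 1 bp, in percent, by the width of the WT peak in bp, for the block (left bars) and the rest of the genome (right bars). The classes are the quartiles of the block, and error bars are 95% Wilson intervals. The share in the block is 17.5% in the narrowest class and 64.6% in the widest, below the rest of the genome in each class.

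Of the 20 WT peaks with a fold of 5 or more, 17 met a KO peak (85.0%, 64.0 to 94.8), and of the 33 from 4.5 to 5, 19 did (57.6%). In the rest of the genome the share was 98.5% from fold 5. From 4 to 4.5 the share in the block was 32.2%, from 3.5 to 4 it was 20.5%, and below 3.5 it was 33.9%, against 85.1%, 73.6% and 74.6% outside. The share was lowest in the second lowest class of fold. Among WT peaks over 1 kb, 19 of 23 with a fold of 4.5 or more and 18 of 27 below it were shared. Among those of 1 kb or less the numbers were 17 of 30 and 79 of 321. WT peaks with another WT peak within 5 kb were shared in 37.5% of 248 cases and the more isolated ones in 26.1% of 153, against 82.6% and 75.7% in the rest of the genome.

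All 5 WT peaks of highest fold and all 5 of greatest width met a KO peak. The strongest was in TMEM212, a gene of a predicted membrane protein, from 171853372 to 171855040, with a fold of 4.75 in KO and 6.92 in WT. Next came a peak in KPNA4, an importin alpha gene, which starts at 160548345 in WT and spans 2488 bp in the KO and 3595 bp in the WT list, with a fold of 3.89 in KO and 6.37 in WT. A second peak in TMEM212 had 5.67 in KO and 6.29 in WT, and one in ERICH6 had 4.67 and 6.21. In TNIK, a kinase gene of Wnt signalling, the peak from 171162687 to 171164479 had 5.52 in KO and 5.98 in WT. The widest WT peak, 4032 bp in RNF13, a ubiquitin ligase gene, was met by 2 KO peaks of 1586 and 1831 bp, and the highest fold was 4.13 in KO and 2.72 in WT.

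At the shared WT peaks of the block, KO peaks covered less of the WT peak than elsewhere and had mostly the lower fold. Over the 133 shared WT peaks, the highest KO fold on the peak was below the WT fold at 86 and above it at 47, with medians of 3.59 in KO and 3.93 in WT. The median log2 ratio of KO to WT fold was -0.13, with quartiles of -0.31 and 0.13. In the rest of the genome, over 37022 shared WT peaks, it was 0.07, and the KO fold was lower at 41.1%. KO peaks lay over a median of 60.6% of the bases of a shared WT peak in the block, against 97.9% outside. The KO peaks had fewer bases than the WT peak at 81 of the 133 shared WT peaks, or 60.9%, against 20.4% in the rest of the genome. A KO peak that met several WT peaks was counted at each of them, with its fold and all its bases. The highest KO folds relative to WT were in IL12A-AS1, an antisense gene at IL12A, with 5.33 in KO and 2.71 in WT, and in IQCJ-SCHIP1, with 5.29 and 2.85.

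**Figure D3:**
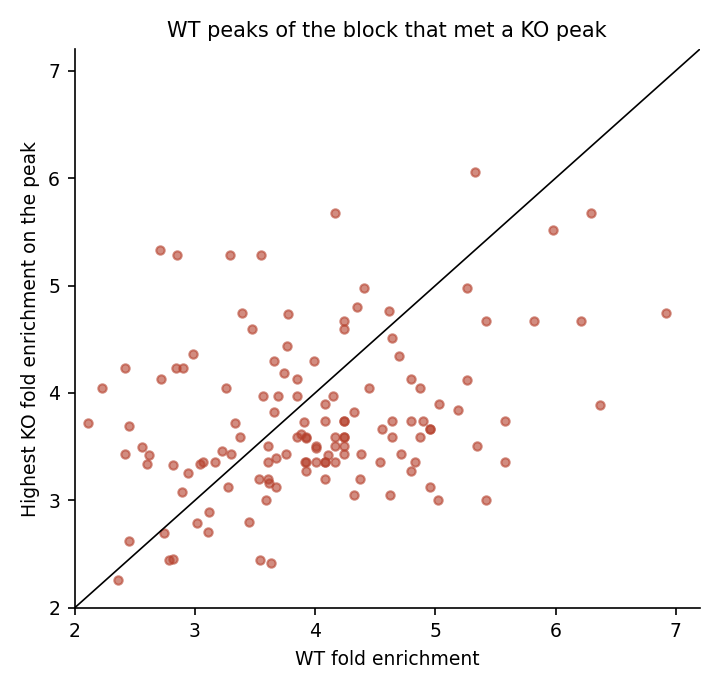
Highest KO fold enrichment on each of the 133 WT peaks of the block that met a KO peak, against the WT fold enrichment of that peak. The line marks equal folds. At 86 peaks the point lies below the line.

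By the authors' class of position, KO peaks divided by WT peaks gave 0.424 in gene bodies (100 KO and 236 WT peaks, 0.336 to 0.535), 0.350 between genes (50 and 143, 0.254 to 0.482) and 0.636 in the promoter classes, which lie within 3 kb of a transcript's start (14 and 22, 0.330 to 1.23). In the rest of the genome these were 1.34, 1.41 and 1.64. The intervals of the 3 classes in the block overlap. Of WT peaks, 34.3% in gene bodies, 30.1% between genes and 40.9% (23.3 to 61.3) in promoter classes met a KO peak. Gene body peaks made up 61.0% of KO and 58.9% of WT peaks of the block, against 41.8% and 43.5% outside it. Among protein-coding genes KO divided by WT peaks gave 0.452 (80 KO and 177 WT peaks), among lincRNA genes 0.256 (10 and 39) and in the authors' class misc 0.571 (24 and 42).

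The block was not even along its length. Its first 12 Mb had 82 KO and 200 WT peaks, and 35.5% of the WT peaks were shared. The next 7 Mb had 12 KO and 61 WT peaks, of which 8 WT peaks were shared (13.1%, 6.8 to 23.8). The next 4 Mb had 45 KO and 74 WT peaks with 48.6% of the WT peaks shared, and the remainder had 25 and 66 with 27.3% shared. These limits were set after the counts were seen. The emptiest part of the KO list ran over 4.03 Mb, from 161590697 to 165624309, with no KO peak and 33 WT peaks. These 33 in a row were the longest run of unshared WT peaks on any chromosome; the next, on chromosome X, had 30. They were weak to moderate, with folds of 2.63 to 5.03 and a median of 3.69, and narrow, with a median of 326 bp. Of them 20 lay between genes, and the authors assigned 7 to LINC01192 and 5 to LINC01322, both long noncoding RNA genes. The 7 lie outside the RefSeq body of LINC01192, which spans 163177243 to 163303301. Gaps of over 1 Mb between neighbouring peaks of the block numbered 6 in KO and 1 in WT.

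The authors' annotation named 76 genes in the block. Of these 54 had more WT than KO peaks (71.1%, against 20.2% of all genes named in either list), 9 had more KO peaks (54.7% of all genes) and 13 had as many of each. A KO peak alone was found at 6, a WT peak alone at 26 and both at 44. Of all genes named in either list 6.08% had a WT peak and no KO peak. By overlap with the bodies of 110 protein-coding genes of RefSeq, 29 had a KO peak and 34 had a WT peak. Both were found at 25, a KO peak alone at 4, a WT peak alone at 9, and neither at 72. Of the 42 assigned genes among these 110, 7 had all their assigned peaks outside the RefSeq body. A peak in overlapping genes was assigned by the authors to 1 of them, and ChIP-seq carries no strand, so the assignment between IL12A and IL12A-AS1, or IQCJ and IQCJ-SCHIP1, is uncertain.

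**Figure D4:**
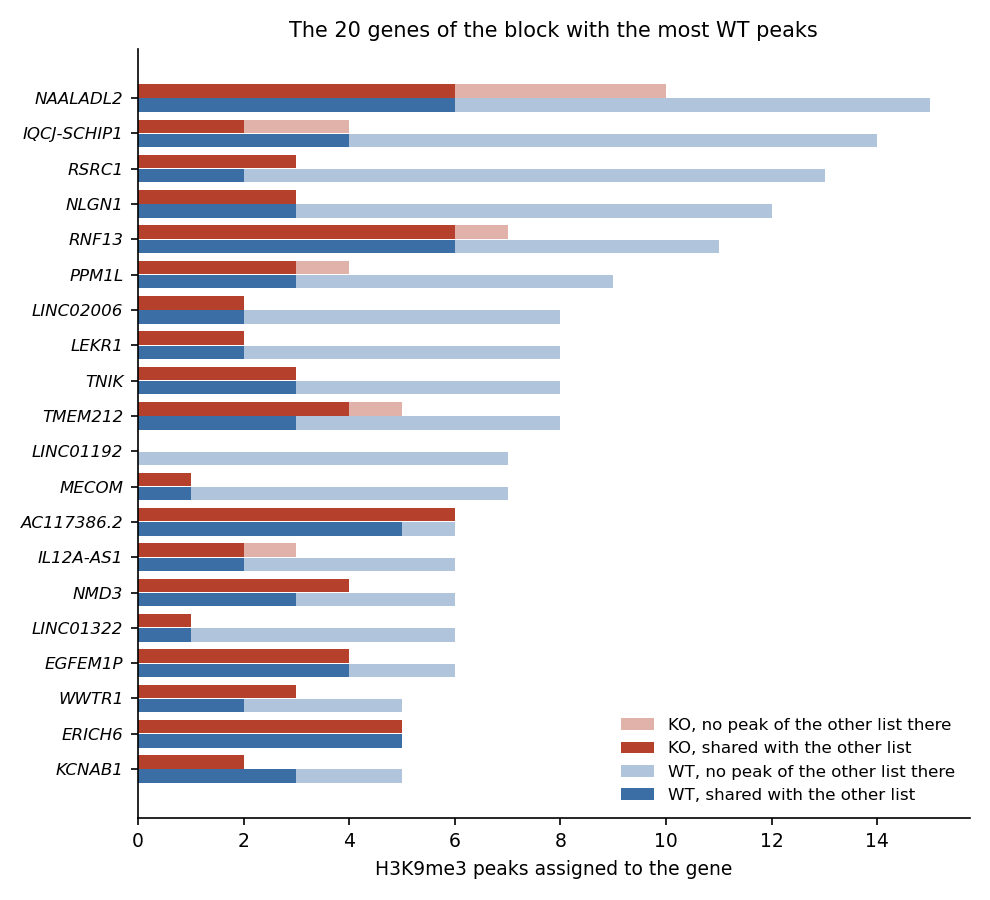
H3K9me3 peaks assigned by the authors to each of the 20 genes of the block with the most WT peaks, KO bar above WT bar. The dark part of a bar counts peaks that met a peak of the other list and the pale part those that did not. NAALADL2 has 10 KO and 15 WT peaks, and LINC01192 has 0 and 7. Counts are not scaled by gene length.

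RSRC1 (ENSG00000174891), which encodes a serine- and arginine-rich protein of pre-mRNA splicing, had 3 KO and 13 WT peaks over 1831 and 9415 bases. It spans 436 kb from 158110089 to 158545730 in RefSeq. The widest WT peak in it, 2974 bp from 158265708 with a fold of 5.27, was met by 2 KO peaks of 498 and 314 bp with folds of 4.98 and 3.20. The other shared peak, 1019 bp in KO and 1208 bp in WT, had a fold of 3.74 and 4.64. The authors class it as promoter, relative to an internal transcript start, and it lies 90.7 kb inside the gene. The remaining 11 WT peaks, with folds from 3.22 to 4.48, met no KO peak. They include a peak of 841 bp, which lay 3535 bp beyond the promoter window printed above, and a group of 3 from 158392876. The nearest KO peak to that window was 63076 bp away, outside the gene. In RSRC1 the 2 strongest WT peaks were the shared ones.

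**Figure D5:**
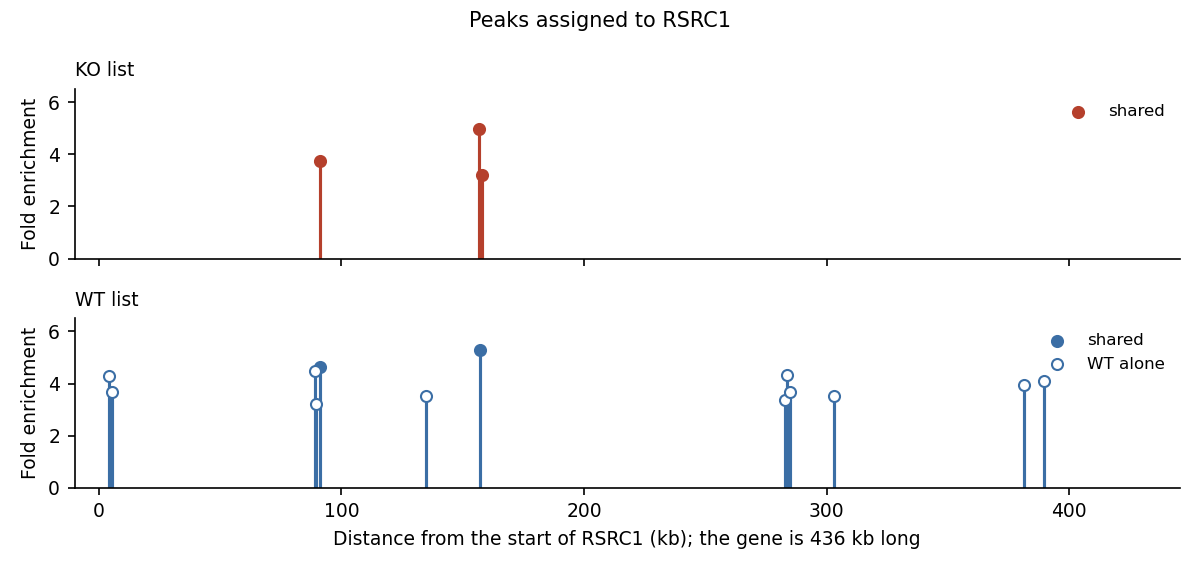
Fold enrichment of each peak assigned to RSRC1 against its distance from the gene's start in kb, KO list on top and WT list below. Filled points met a peak of the other list and open points did not. The 3 KO peaks stand at the places of 2 WT peaks, and 11 WT peaks have no KO peak.

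A list of 12 genes drawn up for neurons or synapses also held genes not confined to neurons, such as TNIK. Of these 12, 5 had a KO peak and 5 a WT peak, also by RefSeq body. The 12 genes had 19 KO and 41 WT peaks in all, with 3 and 8 in TNIK and 10 and 15 in NAALADL2. These counts do not describe neuronal genes alone. Of the 110 protein-coding bodies 26.4% had a KO and 30.9% a WT peak. The 6 with none in either list were SLITRK3, SHOX2, BCHE, SLC7A14 and the long genes MED12L (351 kb) and KCNMB2 (308 kb). NLGN1, a postsynaptic adhesion gene, had 3 KO and 12 WT peaks, and its strongest WT peak, 872 bp from 174164351 with a fold of 5.58, had no KO peak. It was the strongest unshared WT peak of the block. The next was an intergenic one from 175818739 with a fold of 5.50. The 3 KO peaks of NLGN1 lay on WT peaks, with folds of 3.66, 3.26 and 3.66 in KO and 4.95, 2.94 and 4.95 in WT. Counts per gene were not scaled by length, and NLGN1 spans 898 kb, against 149 kb for RNF13. NAALADL2, a gene of the glutamate carboxypeptidase family, had 10 and 15 peaks, the most of any gene here in either list. At 1370 kb it is also the longest of the 110 bodies. Of the KO peaks there 6 were shared and 4 were not, and no fold passed 3.51 in KO or 4.48 in WT. IQCJ-SCHIP1 had 4 and 14 peaks. KCNAB1, of a potassium channel beta subunit, had 2 and 5 peaks but 1583 and 1832 bases.

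Among genes of the 3q26 amplicon, 6 of 15 had a KO peak and 8 a WT peak, with 10 and 26 peaks. By RefSeq body it was 6 and 7 of 14, against 26.4% in KO and 30.9% in WT of all 110 bodies. MECOM (ENSG00000085276), a zinc finger transcription factor gene of leukaemia and early development, had 1 KO and 7 WT peaks. The shared one, 277 bp in KO and 405 bp in WT, had a fold of 3.05 and 4.62. The WT peak over the MECOM-AS1 promoter, 603 bp from 169447275 with a fold of 4.56, was assigned by the authors to AC074033.1, a transcript that begins at 169447867. The nearest KO peak, 940 bp with a fold of 2.26, ended 1618 bp before that promoter window and met a WT peak of 1638 bp and fold 2.36. TBL1XR1, of a corepressor complex, had 0 and 4 peaks, among them a WT-only peak of 1365 bp. TNIK had 3 and 8. It has 2 WT peaks within 1 kb of an annotated start, which is internal to the gene (171058414 to 171460408 in RefSeq). The one of 740 bp, from 171225884, had a fold of 5.58 and was met by a KO peak of 271 bp and fold 3.36. The one of 321 bp, from 171225396, had a fold of 3.53 and was met by none. PRKCI, the gene of an atypical protein kinase C, had 1 peak in each, of 1020 and 1005 bp, with folds of 3.74 and 4.90. FNDC3B had 1 KO and 3 WT peaks. EIF5A2, a translation factor gene, had 3 KO and 1 WT peaks, of which 2 in KO and the 1 in WT are promoter-class and lie upstream of its start. SKIL, TERC, SEC62, PHC3, PDCD10, CLDN11 and TNFSF10 had no peak in either list.

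Of 20 genes used in most cells, 4 had an assigned KO peak and 6 an assigned WT peak, and the other 14, EIF2A, SMC4 and GMPS among them, had none. By RefSeq body it was 3 in KO and 4 in WT, against 26.4% and 30.9% of all 110 bodies. RNF13 had 7 and 11 peaks over 6108 and 9587 bases and PFN2, a profilin gene, 1 and 3, all of them outside the RefSeq body of PFN2. KPNA4 had 1 and 3 peaks, MBNL1, of a splicing regulator, 0 and 2, and IFT80, of the ciliary transport machinery, 1 in each. MFSD1, a lysosomal transporter gene, had 5 WT peaks from 158778743 to 158787495 and no KO peak, and these too lie outside its RefSeq body, which starts at 158802054. Of 16 genes of gut, liver, kidney or sensory epithelia, 2 had an assigned KO peak and 2 a WT peak, or 2 and 1 by RefSeq body, against the same 26.4% and 30.9%. MME, which encodes neprilysin, had 3 and 4 peaks, and OTOL1, of the inner ear, had a WT-only peak of 1171 bp upstream. Receptor genes of the P2RY group had none, and of 10 G protein coupled receptor genes only GPR149 was marked, with 1 WT peak. By RefSeq body it was 0 in KO and 1 in WT of 10, again beside 26.4% and 30.9% of all 110 bodies. C2H2 zinc finger genes are known to carry H3K9me3 in clusters elsewhere. Of MECOM and MYNN, both of this kind, MECOM was marked and MYNN was not.

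ERICH6 had 5 KO and 5 WT peaks, all shared, over 2437 and 4344 bases. AC117386.2, a noncoding gene, had 6 and 6 over 3867 and 6758 bases, and its promoter-class peak had the highest KO fold of the block, 6.06, against 5.33 in WT. NMD3, of ribosome export, had 4 and 6, all outside its RefSeq body. The numbers were, for EGFEM1P, a pseudogene, 4 and 6, and for PPM1L, a phosphatase gene, 4 and 9. LEKR1 and LINC02006 each had 2 and 8.

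KO-only peaks were few and mostly weak, with a median width of 354 bp and a median fold of 3.36. The strongest, in SPATA16, a testis gene, spanned 586 bp from 173073378 with a fold of 4.74. The widest, between genes from 172613735, had 883 bp and a fold of 3.76. Genes with a KO peak and no WT peak assigned were CLRN1, IL12A, SERPINI1, LRRC34, AC025033.1 and AC080013.1, with 1 peak each, and the one at LRRC34 met a WT peak that the authors placed between genes. The KO peak at SERPINI1, the gene of neuroserpin, spanned 572 bp with a fold of 3.66. The widest WT-only peaks were 1607 bp in PLD1, a phospholipase gene, then those in TBL1XR1, IQCJ-SCHIP1 (1272 bp) and NLGN1 (1234 bp), and 1224 bp between genes from 175945491.

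In the first 27 Mb of chromosome 10, another stretch with fewer KO peaks, there were 208 KO and 451 WT peaks. KO divided by WT peaks gave 0.461 there (0.391 to 0.543), and this interval overlaps that of the block. Of its KO peaks 73.1% (66.7 to 78.6) were shared, against 84.1% (77.8 to 88.9) in the block, and of its WT peaks 34.6%, against 33.2% (28.7 to 37.9). On chromosome X above 76 Mb there were 1503 KO and 2316 WT peaks, and KO divided by WT peaks gave 0.649 (0.608 to 0.692). Of the KO peaks there 79.1% were shared and of the WT peaks 50.1% (48.1 to 52.1). On the rest of chromosome 3 KO had 3852 and WT 2608 peaks, and 86.4% of the WT peaks were shared.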

How the data were processed

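H3K9me3 ChIP-seq of 293T cells was made from formaldehyde-fixed, sonicated chromatin, per the labels' protocols, and the submitters' processing notes name HISAT2 and hg38. Which peak caller was used, and how inputs and replicates entered, is not given in the sources used here. Deposited were the authors' 2 peak lists with positions, a fold enrichment (a ratio whose denominator is not defined), a q-value per peak within its list and a gene annotation. Values per library were 0, so depth per sample is unknown and the planned edgeR test of 3 KO against 3 WT libraries was not run.

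Positions were read as counted from 1. Overlaps, shares and Wilson intervals were computed in Python 3.11.15 with pandas 2.3.3 on the assembled chromosomes (64598 KO and 46474 WT peaks), and a peak was called shared where at least 1 bp of it lay under the other list's peaks. The overlap code was tested on simulated intervals. RefSeq (GRCh38.p14) held 60 of the 76 gene names of the block, all 60 with gene coordinates that overlap the authors' transcript, though assigned peaks can lie outside the RefSeq gene. Genes were named by peak counts, by sharing, by promoter peaks and by lists. The block, its genes and the lists were chosen with earlier results of these data known. Genes outside that rule, and single peaks near them, were named after their values were seen.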

Additional observations from a re-analysis of the deposited data

How the results depend on the processing

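No paired analysis was possible because each genotype has 1 list with no column per library, and for the same reason no replicate could be left out. There were 28 recomputations under other settings, and 16 lay outside the value's 95% counting interval. No ratio, difference in sharing or count of genes changed direction, while a share of peaks alone has no direction to change. Covered bases have none of their own and were held to that of the peak ratio, scaled to their value. The number of genes with more WT than KO peaks has no interval either. Against 54, it was 62 with the KO list shortened to 46898 peaks and 57 by overlap with RefSeq gene bodies. Neither was counted among the 16. The 57 rests on a different set of genes from those the authors named. Among the 110 protein-coding bodies, 27 had more WT and 5 more KO peaks. The KO to WT ratio of peaks was 0.241 at or above the pooled median fold of 3.69, 0.300 from fold 5 (6 KO and 20 WT peaks), 0.528 at or below the pooled median q, and 0.234 with the KO list shortened to 46898 peaks. For covered bases these were 0.292, 0.215, 0.478 and 0.272. The cause was not tested. With 46898 KO peaks, of which 94 lay in the block, sharing was 90.4% for KO and 22.4% for WT peaks. Requiring 50% of both peaks gave 39.6% for KO and 16.2% for WT, and counting peaks within 1 kb gave 92.1% for KO and 42.9% for WT. Merging peaks within 1 kb gave 38.0% of WT. These shares are of block peaks alone and have no value for the rest of the genome beside them. Whether the block still differed in sharing under these settings was not tested. The difference in sharing between wider and narrower WT peaks was 30.6 percentage points, against 23.4 in the rest of the genome. By midpoint it was 21.1, where the shares in the rest of the genome were 84.3% and 60.5%. Depth, replicate spread and the peak caller's treatment of the inputs were not measured, and the calling threshold of each list is not known.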
